A study of Mus musculus with 9 samples.

Results

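The 9 transcripts described here, which SMAD and YAP proteins switch on directly, were measured in the aorta of mice designed to lack the type 1a angiotensin II receptor in smooth muscle or in endothelium, and of mice that keep it. They were Ccn1, Ccn2, Ankrd1, Smad6, Smad7, Id1, Id2, Id3 and Skil, chosen by symbol as known targets of these signals, with their group FPKM in these same data known. All 9 were found by symbol among the 37668 genes listed, and all 9 passed the filter of 1 FPKM or more in at least 1 group, which left 14225 genes for analysis. Because their group values were known when they were picked, the differences below are descriptions, and their agreement or disagreement is no independent support for anything.

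The values come from aortic tissue of male mice aged 90 days on the 129T2SvEmsJ:C57Blk/6J background, with 9 libraries, 3 per group, and the labels do not say whether each is a separate animal. All mice carried the loxP-flanked receptor gene (AT1ar floxed). The Sm22Cre group also carried Cre under the Tagln (SM22) promoter of smooth muscle, which is active in the embryonic heart as well. The Cdh5Cre group carried Cre under the promoter of Cdh5, which encodes endothelial cadherin. The floxed group had no Cre transgene. A group with Cre and no floxed allele was not analysed here, and the labels name no fibrillin-1 allele and no treatment, although the series title names Marfan syndrome. The authors deposited 1 FPKM value (sequenced fragments corrected for the length of a transcript and for sequencing depth) per gene and group, made from 3 libraries each. The spread between samples and the depth of the libraries are unknown, so the differences have no replicate check, and none was tested.

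The receptor gene Agtr1a stood at 1.21 FPKM in Sm22Cre, 1.32 in Cdh5Cre and 1.75 in floxed aorta. It covers all cells of the wall and, at this level, does not check the labels. The tissue carried its defining smooth muscle transcripts, with Myl9 at 4056, 5407 and 4213 FPKM in the same order. Endothelial transcripts were present (Pecam1 at 151, 163 and 136 FPKM), and heart muscle transcripts were too (Tnnt2 at 104, 309 and 189 FPKM). In whole tissue, fewer cells of a type and less RNA per cell cannot be told apart.

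TGF-beta ligands act through receptor kinases that phosphorylate SMAD2 and SMAD3, and BMP ligands through kinases that phosphorylate SMAD1 and SMAD5. Both kinds join SMAD4 in the nucleus and bind DNA near their target genes, among them the genes of inhibitory SMADs that dampen the signal. YAP and TAZ are held in the cytoplasm by the Hippo kinases; on stretch or a stiff matrix they enter the nucleus and bind TEAD factors at target promoters. In the vessel wall, TGF-beta signalling is studied for its part in aneurysm, BMP signalling for the quiescence of endothelium under flow, and YAP for the response of smooth muscle and endothelium to mechanical load.

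Promoter sequence was available for 5 of the 9 genes in RefSeq's annotation of GRCm38.p6, each window running from 250 bases before to 50 bases after the start of transcription. Ccn1 and Ankrd1 are shown because both, as deposited, lay below floxed in Sm22Cre and above it in Cdh5Cre. Id3 is shown as a BMP target beside them. Smad6 stood in the same order with smaller differences, and Id2 is a BMP target too, but their windows are not printed. Capitals mark GGAATG, the core of the TEAD motif, or its reverse complement CATTCC, and GGCGCC, a core bound by SMAD1 and SMAD5 that reads the same on both strands.
Ccn1, chr3:145649936-145650235, minus strand: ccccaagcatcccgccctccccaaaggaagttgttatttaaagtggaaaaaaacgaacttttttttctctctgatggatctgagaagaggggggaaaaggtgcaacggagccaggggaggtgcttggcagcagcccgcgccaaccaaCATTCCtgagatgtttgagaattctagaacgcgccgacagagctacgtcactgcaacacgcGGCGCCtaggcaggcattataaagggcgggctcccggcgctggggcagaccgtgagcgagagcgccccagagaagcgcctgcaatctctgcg
Ankrd1, chr19:36119795-36120094, minus strand: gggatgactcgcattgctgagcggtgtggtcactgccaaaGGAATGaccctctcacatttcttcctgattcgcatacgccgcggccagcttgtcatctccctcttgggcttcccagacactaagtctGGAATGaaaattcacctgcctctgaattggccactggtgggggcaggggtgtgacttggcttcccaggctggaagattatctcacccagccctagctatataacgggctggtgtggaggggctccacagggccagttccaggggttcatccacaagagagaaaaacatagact
Id3, chr4:136143572-136143871, plus strand: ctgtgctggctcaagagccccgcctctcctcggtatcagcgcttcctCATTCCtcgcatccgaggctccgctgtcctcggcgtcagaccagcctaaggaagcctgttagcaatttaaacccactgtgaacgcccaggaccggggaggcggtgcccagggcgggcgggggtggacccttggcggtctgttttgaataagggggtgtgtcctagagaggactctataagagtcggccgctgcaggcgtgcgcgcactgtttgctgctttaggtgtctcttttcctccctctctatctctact

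The Ankrd1 window held 2 TEAD cores, at -210 to -205 and at -123 to -118, counted with the first transcribed base as 1 and no base 0. The Ccn1 window held 1 at -103 to -98, and the Id3 window 1 at -203 to -198. The windows of Smad6 and Id2 held none, so the windows printed are those with the core. No link between this core and the group values can be read from that choice. Of 32851 promoter windows of the same length, 14.7% held this core on either strand. The GGCGCC core was present in Ccn1 (-42 to -37) and in Id2 (-231 to -226), against 11.9% of all windows. AGAC, the short core bound by SMAD3 and SMAD4, was present in all 5 windows, with 1 to 3 matches each, but 88.0% of all windows hold it. It overlapped neither of the other cores in these windows. A CArG box, the element of serum response factor, was found in none of the 5 and in 1.63% of all windows.

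The 9 genes spanned a wide range of levels, and FPKM, being per length, allows genes to be ranked. Ccn2 was the highest in every group and ranked 56th of 14225 genes in Sm22Cre, 94th in Cdh5Cre and 92nd in floxed. It made up 56.1% of the summed FPKM of the 9 in Sm22Cre, 49.0% in Cdh5Cre and 48.0% in floxed. Id3 came next in every group, followed by Ccn1, Id2 and Id1 in an order that differed between groups. Smad6, Smad7, Skil and Ankrd1 were the lowest in Sm22Cre and floxed, between 15.8 and 27.5 FPKM. In Cdh5Cre Ankrd1 stood above the other 3 of these at 49.1 FPKM. Among the 9, the highest group value exceeded the lowest by 3.10-fold in Ankrd1, 1.98-fold in Id1 and 1.89-fold in Ccn1, and by 1.28-fold in Smad6, the least variable.

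**Figure D1:**
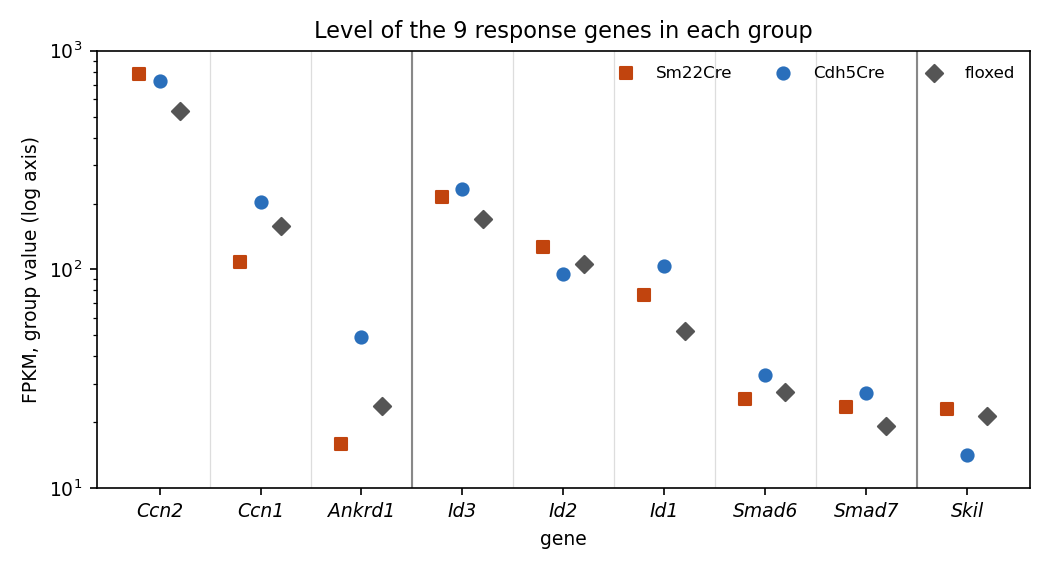
Group values of the 9 genes in FPKM on a log axis, with Sm22Cre (squares), Cdh5Cre (circles) and floxed (diamonds) side by side for each gene; grey lines separate the YAP targets, the BMP targets with the inhibitory SMADs, and Skil. Ccn2 and Id1 lie above floxed in both Cre groups, whereas Ccn1 and Ankrd1 lie below floxed in Sm22Cre and above it in Cdh5Cre.

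Counts over the 9 genes were read on a log2 scale after adding 1 FPKM. In Cdh5Cre against floxed, 7 of 9 were higher, where 51.7% of all genes were. A lower threshold of 0.32 on the log2 scale was also used. Past it, 6 were higher (23.7% of all genes) and 1 lower (19.5%), and by 2-fold 1 differed (1.89%). In Sm22Cre against floxed, 6 of 9 were higher (52.0% of all genes). Past 0.32, 3 were higher (2.52%) and 2 lower (2.37%), and by 2-fold 0 differed (0.633%). In Sm22Cre against Cdh5Cre, 3 of 9 were higher (49.1%); 2 were higher past 0.32 (18.2%) and 4 lower (21.3%), and 1 passed 2-fold (1.63%). The median log2 ratio of the 9 was 0.45, 0.25 and -0.20 in the order of these comparisons, beside 0.02, 0.01 and -0.01 for all genes. Nothing is read from these shares, since the genes were chosen with the same values known. The same shares of all genes apply to the counts of the gene lists below, where not all are repeated.

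The YAP targets split in Sm22Cre: Ccn2 stood above floxed, Ccn1 and Ankrd1 below it. Ccn2, on mm9 chromosome 10 from 24269247 to 24318489, encodes a secreted matricellular protein, connective tissue growth factor, that TGF-beta, YAP and angiotensin II all induce in vascular cells. It had 783 FPKM in Sm22Cre, 728 in Cdh5Cre and 532 in floxed aorta, so both Cre groups exceeded floxed. The excess was 1.47-fold in Sm22Cre, a log2 ratio of 0.56 that only 103 of the 14225 genes exceeded, and 1.37-fold in Cdh5Cre, a log2 ratio of 0.45 that 2166 genes exceeded and that was -0.01 under quantile normalization. Sm22Cre and Cdh5Cre differed by 1.08-fold.

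The listed locus of Ccn2 is shared with Gm15270, an RNA annotated on the opposite strand, and with the pseudogene Gm6893, listed at 0 in every group. Gm15270 stood at 312 FPKM in Sm22Cre, 228 in Cdh5Cre and 233 in floxed. The libraries were stranded, but no source used here says whether the counting used strand, so fragments could be divided between the 2 genes. Summed, they came to 1095 FPKM in Sm22Cre, 956 in Cdh5Cre and 766 in floxed, with Sm22Cre 1.43-fold above floxed. Cdh5Cre was again between the other groups.

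Ccn1 (chromosome 3, 145309935 to 145312949), the related matricellular gene long known as Cyr61 and an immediate early gene as well as a YAP target, stood at 108 FPKM in Sm22Cre, 204 in Cdh5Cre and 157 in floxed. Sm22Cre was 1.46-fold below floxed, at percentile 1.01 of all log2 ratios, and Cdh5Cre 1.29-fold above it, at percentile 79.7. The Cdh5Cre log2 ratio of Ccn1 to floxed was 0.37, or 0.09 with the groups scaled to the same sum. Between the 2 Cre groups Ccn1 was 1.89-fold lower in Sm22Cre. Ccn2 and Ccn1, which share a domain plan and many inducers, thus stood in different proportion: Ccn2 had 7.26 times the FPKM of Ccn1 in Sm22Cre, 3.58 times in Cdh5Cre and 3.38 times in floxed. A ratio of 2 genes within a group does not move with the scaling of that group.

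Ankrd1 (chromosome 19, 36186455 to 36194334) encodes an ankyrin repeat protein of the sarcomere and nucleus that is abundant in heart muscle and induced by stretch. It had 15.8 FPKM in Sm22Cre, 49.1 in Cdh5Cre and 23.6 in floxed. It was the only 1 of the 9 to pass 2-fold in any comparison. Cdh5Cre was 2.08-fold above floxed (log2 ratio 1.02) and Sm22Cre 3.10-fold below Cdh5Cre (log2 ratio -1.57). Sm22Cre was 1.49-fold below floxed (log2 ratio -0.55). The Cdh5Cre excess passed 2-fold narrowly: it was 0.97 on the log2 scale with the trend over transcript length and GC content removed and 0.76 with the groups scaled to the same sum.

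Heart muscle markers stood in the same order as Ankrd1. Summed over 14 markers, none of them at 0, they came to 468 FPKM in Sm22Cre, 1622 in Cdh5Cre and 1044 in floxed. Against floxed, all 14 were lower in Sm22Cre, 13 of them past 0.32 (2.37% of all genes) and 10 past 2-fold. In Cdh5Cre 13 of 14 were higher, 11 past 0.32 (23.7% of all genes). The median of the 14 in Cdh5Cre was 0.57 on the log2 scale and 0.18 with the length and GC trend removed, where Ankrd1 was at 0.97. In Sm22Cre their median was -1.16, and -1.18 with the trend removed. Ankrd1 amounted to 3.38% of that sum in Sm22Cre, 3.03% in Cdh5Cre and 2.26% in floxed. The part of heart muscle at the aortic root in the Ankrd1 values was not tested. Ccn1, which is not among those markers, stood in the same order too.

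With the pair of log2 ratios to floxed as measure of likeness, over the 6386 genes at 10 FPKM or more in every group, the nearest to Ccn1 were Fhl2, Timp1 and Comp. Fhl2, which encodes a LIM domain protein of striated and smooth muscle, stood at 10.7 FPKM in Sm22Cre, 22.03 in Cdh5Cre and 16.9 in floxed. Timp1, an inhibitor of matrix proteases, stood at 26.1, 46.8 and 38.0 FPKM in the same order. Its Cdh5Cre log2 ratio to floxed was 0.29, or -0.18 with the length and GC trend removed. No gene lay within 0.1 of Ankrd1; the nearest, at distances of 0.35 to 0.37, were the flow-responsive factor Klf2, the orphan receptor gene Nr4a1 and Gm22133. In all, 83 genes (0.583%) were past 0.32 above floxed in Cdh5Cre and as far below it in Sm22Cre. The likeness and this count rest on 3 group values as deposited, with the length and GC trend left in. The 2 ratios share the floxed group.

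Of the BMP targets, Id1 and Id3 were above floxed in both Cre groups as deposited, as were Ccn2 and Smad7. Id2 and Smad6 were not above it in both. With the length and GC trend removed, the Cdh5Cre log2 ratio of Id3 was 0.00 in place of 0.45 and that of Id1 0.53 in place of 0.98. The ID proteins lack a DNA-binding region and block basic helix-loop-helix factors by pairing with E proteins, and Id1 is a sensitive readout of BMP signalling in endothelium. Id1 (chromosome 2, 152561987 to 152563146) stood at 76.1 FPKM in Sm22Cre, 103 in Cdh5Cre and 52.1 in floxed. Floxed was the lowest of the 3, with Sm22Cre 1.46-fold above it (percentile 99.2 of all log2 ratios) and Cdh5Cre 1.98-fold (percentile 98.7). The nearest genes to Id1 in pattern, in ratios as deposited, were Rmnd1, Ddit4 and Mir3074-1. Ddit4, an inhibitor of mTOR signalling, stood at 18.9 FPKM in Sm22Cre, 25.5 in Cdh5Cre and 13.4 in floxed.

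Id3 (chromosome 4, 135699412 to 135701670) stood at 215 FPKM in Sm22Cre, 232 in Cdh5Cre and 170.4 in floxed, 1.26-fold and 1.36-fold above floxed. Id2 (chromosome 12, 25778666 to 25780957) stood at 126, 95.4 and 106 FPKM in the same order. It was 1.19-fold above floxed in Sm22Cre and, unlike the other 2, below it in Cdh5Cre, by 1.11-fold. As deposited, the Cdh5Cre log2 ratios to floxed were 0.98 for Id1, 0.45 for Id3 and -0.15 for Id2. With the groups scaled to the same sum they were 0.70, 0.16 and -0.43. The 3 genes together came to 417 FPKM in Sm22Cre, 431 in Cdh5Cre and 329 in floxed. Their make-up, as deposited, was closest between Sm22Cre and floxed. It was not corrected for the length and GC trend. With that trend removed, the Cdh5Cre log2 ratios to floxed were 0.53 for Id1, 0.00 for Id3 and -0.14 for Id2. Id1 took 18.2% of the sum in Sm22Cre, 24.0% in Cdh5Cre and 15.9% in floxed, while Id2 took 30.3%, 22.1% and 32.3%, and Id3 between 51.5% and 53.9%.

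Of the E protein genes, Tcf4 and Tcf12 were below floxed in both Cre groups and Tcf3 was above it in Cdh5Cre. Tcf4 stood at 21.1 FPKM in Sm22Cre, 16.1 in Cdh5Cre and 24.2 in floxed, and Tcf12 at 24.9, 18.3 and 28.1 FPKM. Tcf3 stood at 18.6, 22.5 and 18.4 FPKM. With the length and GC trend removed, the log2 ratios of Cdh5Cre to floxed were 0.06 for Tcf4, -0.13 for Tcf12 and 0.01 for Tcf3.

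The inhibitory SMADs, which BMP and TGF-beta signals induce and which block the receptors in return, were at similar levels. Smad7 (chromosome 18, 75527183 to 75555589), which inhibits both branches, stood at 23.5 FPKM in Sm22Cre, 27.1 in Cdh5Cre and 19.2 in floxed. Both Cre groups were above floxed, by 1.23-fold in Sm22Cre and 1.41-fold in Cdh5Cre. With the groups scaled to the same sum, the Cdh5Cre log2 ratio of Smad7 to floxed was 0.21 in place of 0.48. Sm22Cre was below Cdh5Cre with a log2 ratio of -0.20, which was 0.07 under that scaling. Smad6 (chromosome 9, 63800953 to 63869866), which acts mainly on the BMP branch, stood at 25.6 FPKM in Sm22Cre, 32.8 in Cdh5Cre and 27.5 in floxed. It lay 1.08-fold below floxed in Sm22Cre and 1.19-fold above it in Cdh5Cre; the Cdh5Cre log2 ratio of 0.24 was -0.03 with the length and GC trend removed and -0.04 with the groups scaled to the same sum. Smad6 exceeded Smad7 1.09-fold in Sm22Cre, 1.21-fold in Cdh5Cre and 1.43-fold in floxed.

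Skil (chromosome 3, 30993980 to 31021499), which encodes SnoN, a co-repressor that binds SMADs and is itself a TGF-beta target, was the only 1 of the 9 below floxed past 0.32 in Cdh5Cre. It stood at 23.0 FPKM in Sm22Cre, 14.1 in Cdh5Cre and 21.2 in floxed. Sm22Cre was 1.08-fold above floxed and Cdh5Cre 1.51-fold below it. Its status in the authors' table was FAIL in all 3 pairs of groups, whereas the other 8 genes were listed as OK throughout. Among the genes named beside the 9, Nox4, Axl, Timp1, Jun, Eng, Tcf3, Tcf12, Yap1, Pecam1, Myl9 and Tnnt2 were FAIL in every pair too. Of the 5 erythroid markers measured, 1 was listed as OK. Skil also has the longest transcript of the 9 and the lowest GC content, and with that dependence removed its Cdh5Cre log2 ratio of -0.56 became -0.01. Its nearest genes in pattern, in ratios as deposited, were Dhx9, Sparcl1 and Mier1, and 49 genes lay within 0.1 of it.

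Endothelial markers were above floxed in Cdh5Cre, where several of these genes were highest. Their sum over 15 markers, none of them at 0, was 515 FPKM in Sm22Cre, 729 in Cdh5Cre and 470.5 in floxed. Against floxed, 14 of 15 were higher in Cdh5Cre, 11 past 0.32 (23.7% of all genes). In Sm22Cre 12 of 15 were higher, 2 past 0.32 (2.52% of all genes). Id1 amounted to 14.8% of that sum in Sm22Cre, 14.2% in Cdh5Cre and 11.1% in floxed. Id3 amounted to 41.8%, 31.9% and 36.2%, Smad6 to 4.98%, 4.50% and 5.86%, and Smad7 to 4.57%, 3.72% and 4.08%. These shares are of values as deposited. With the length and GC trend removed, the median Cdh5Cre log2 ratio of the endothelial markers was 0.52. Beside it, Id1 was at 0.53, Smad7 at 0.41, Id3 at 0.00 and Smad6 at -0.03. In Sm22Cre against floxed, also with the trend removed, the endothelial median was 0.11. There Id1 was at 0.50, Smad7 at 0.31, Id3 at 0.30 and Smad6 at -0.08. The part of endothelial RNA in these values was not tested.

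**Figure D2:**
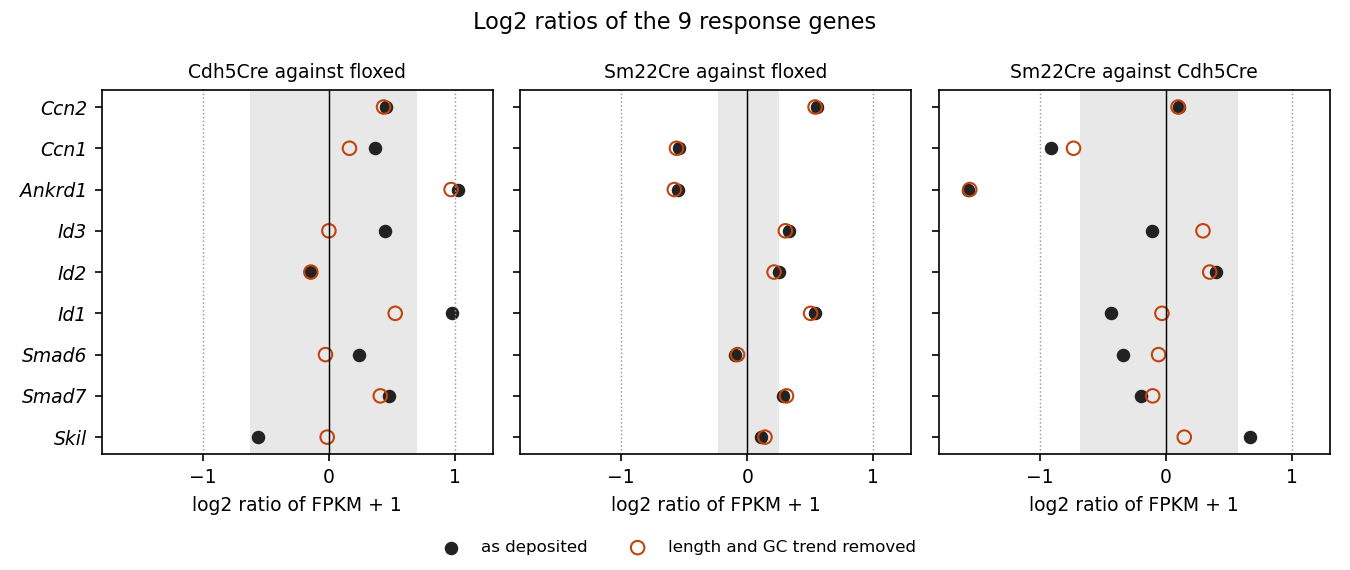
Log2 ratios of FPKM + 1 for the 9 genes in each comparison, as deposited (filled) and after removal of the length and GC trend (open); grey bands hold the 5th to 95th percentile of all 14225 genes and dotted lines mark 2-fold. In Sm22Cre against floxed the filled and open points nearly coincide. Ccn2, Id1, Id3 and Smad7 lie right of the band and Ccn1 and Ankrd1 left of it. The filled point of Id2 (0.25) lies just right of the band and its open point (0.21) inside it. In Cdh5Cre against floxed Id1, Id3 and Skil shift most between filled and open.

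The Cdh5Cre ratios ran with transcript length and GC content. Over 12317 protein-coding genes these properties accounted for 46.4% of the variance of the log2 ratios of Cdh5Cre to floxed, 3.81% of those of Sm22Cre to floxed and 48.0% of those of Sm22Cre to Cdh5Cre. Some of the 9 genes lie near the ends of the range of length or GC content. The longest transcripts of Id1 and Id3 have 1160 and 1278 bases, near the short end of all genes (length percentiles 7.81 and 9.99), and that of Skil has 6717 (percentile 90.3, GC content 41.0%). Smad6 has a GC content of 60.8%, at percentile 96.7. With the trend removed, Id1 and Id3 were lower as given above, while Ankrd1 (0.97), Ccn2 (0.43) and Smad7 (0.41) stayed near their first values, and Ccn1 was at 0.16 in place of 0.37. In Sm22Cre against floxed, no gene of the 9 shifted by 0.1 or more.

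**Figure D3:**
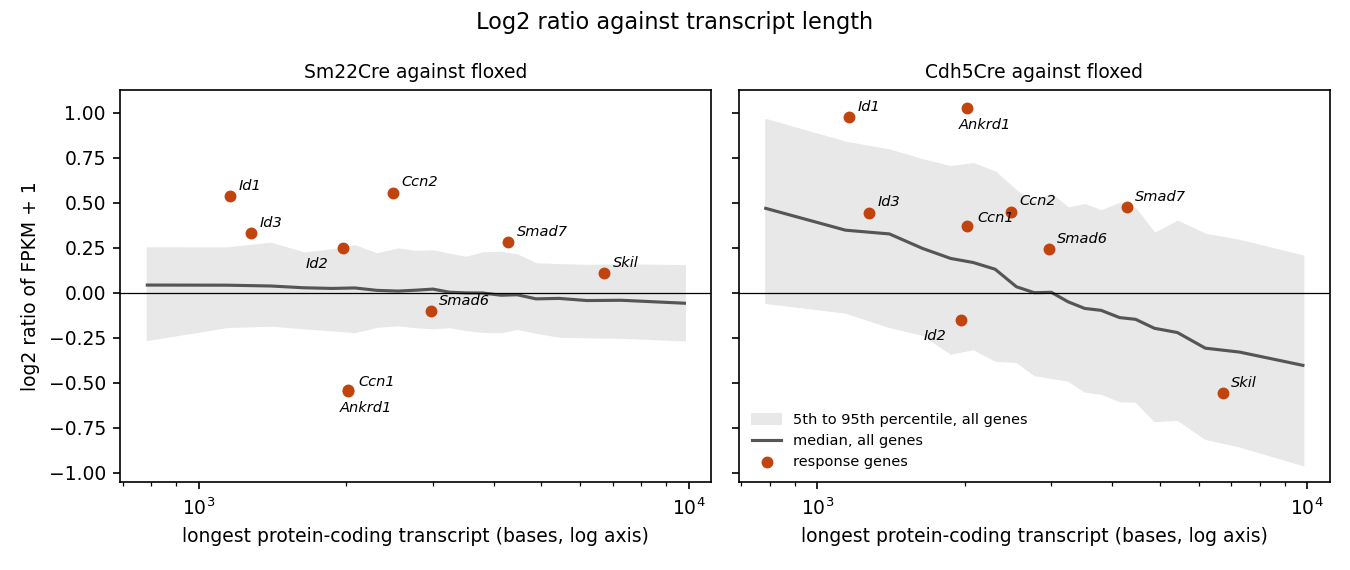
Log2 ratio of FPKM + 1 against the length of the longest protein-coding transcript (log axis) in Sm22Cre against floxed (left) and Cdh5Cre against floxed (right); the line is the median and the band the 5th to 95th percentile of all protein-coding genes in 20 bins of length. The line is nearly flat on the left and slopes down on the right, where Id1 and Id3 lie at the short end and Skil at the long end.

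Other targets of the same signals varied in direction. Of 23 other TGF-beta targets, 8 were higher and 15 lower than floxed in Sm22Cre. Past 0.32, 2 were higher and 2 lower (2.52% and 2.37% of all genes). The median log2 ratio was -0.06. The cell cycle inhibitor gene Cdkn1a was higher, at 35.05 FPKM in Sm22Cre and 24.8 in floxed, and Timp1 and Jun were lower. In Cdh5Cre 13 of the 23 were higher, 6 of them past 0.32 (23.7% of all genes), and 3 were lower past it (19.5%). The median was 0.04. That median was -0.24 with the groups scaled to the same sum and 0.05 with the length and GC trend removed. Among the 11 with status OK it was 0.25. Junb was at 29.3 FPKM in Cdh5Cre and 16.4 in floxed (log2 ratio 0.80, or 0.37 with the trend removed). The NADPH oxidase gene Nox4 was at 98.4 FPKM in Cdh5Cre and 157 in floxed (log2 ratio -0.67, or -0.30).

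Of 12 other BMP targets measured, 3 were higher and 9 lower than floxed in Sm22Cre, with a median of -0.06. The largest difference was in Hamp, the hepcidin gene, at 2.44 FPKM in Sm22Cre and 6.05 in floxed. Atoh8, a helix-loop-helix factor gene, was at 24.9 FPKM in Sm22Cre, 33.2 in Cdh5Cre and 20.5 in floxed, the same order as Id1. In Cdh5Cre 7 of the 12 were higher, 6 past 0.32 (23.7% of all genes), and 2 were lower past it (19.5%). The median was 0.34. That median was 0.09 with no filter on low values, 0.10 with the groups scaled to the same sum and 0.23 with the length and GC trend removed. Tmem100, a BMP-induced gene of endothelium, was at 15.4 FPKM in Cdh5Cre and 7.42 in floxed. Smad9 was at 4.08 FPKM in Cdh5Cre and 7.31 in floxed.

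Of 19 other YAP and TAZ targets, 9 were higher and 10 lower in Sm22Cre, none past 0.32, with a median of -0.01. In Cdh5Cre 7 were higher and 12 lower, with a median of -0.22. That median was -0.04 with the length and GC trend removed and -0.50 with the groups scaled to the same sum. Among the 13 with status OK it was 0.18. Igfbp3 stood in the same order as Ankrd1, at 6.46 FPKM in Sm22Cre, 15.8 in Cdh5Cre and 8.15 in floxed. Axl, a receptor kinase gene, stood at 198 FPKM in Cdh5Cre and 287 in floxed, and Lats2, a Hippo kinase gene that YAP itself induces, at 40.1 FPKM in Sm22Cre, 23.9 in Cdh5Cre and 35.7 in floxed.

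The signal transducers upstream stood lower in Cdh5Cre. Of 19 receptors, SMADs and co-repressors outside the 9, 17 were lower than floxed in Cdh5Cre, 12 past 0.32 (19.5% of all genes). The median log2 ratio was -0.43, or -0.21 with the length and GC trend removed. The BMP type II receptor gene Bmpr2 was at 7.69 FPKM in Cdh5Cre and 21.8 in floxed (log2 ratio -1.39, or -0.70 with the trend removed). Bmpr1a was at 47.0 and 92.6 FPKM (log2 ratio -0.97, or -0.44 with the trend removed). The co-receptor gene Eng, an endothelial marker, went the other way, at 128 FPKM in Cdh5Cre and 73.3 in floxed. Its log2 ratio was 0.79, or 0.64 with the trend removed. In Sm22Cre 16 of the 19 were lower than floxed, 1 of them past 0.32, with a median of -0.12. Of 23 Hippo kinases and YAP cofactors, 20 were lower in Cdh5Cre, 10 past 0.32 (19.5% of all genes). Their median was -0.30, or -0.03 with the trend removed. In Sm22Cre 14 were lower, with a median of -0.01. Yap1 itself stood at 41.1 FPKM in Sm22Cre, 33.0 in Cdh5Cre and 41.3 in floxed, and was named after its values were seen. Tead1 was at 10.8, 5.59 and 13.2 FPKM in the same order. Its Cdh5Cre log2 ratio to floxed was -1.10, or -0.63 with the trend removed. Timp1, Jun, Eng, Tead1, Lats2, Bmpr1a, Tcf4, Tcf12, Yap1 and Pecam1 share a listed locus with at least 1 other gene, so their values are uncertain in the way of Ccn2.

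Immediate early genes, a class that includes Ccn1, had the order of Ccn1 in several members. Of 21, 17 were higher than floxed in Cdh5Cre, 12 past 0.32 (23.7% of all genes), with a median of 0.38. In Sm22Cre 14 were lower, 3 past 0.32 (2.37% of all genes), with a median of -0.09. The Cdh5Cre median was 0.19 with the length and GC trend removed and 0.10 with the groups scaled to the same sum. Nr4a1 stood at 25.5 FPKM in Sm22Cre, 56.1 in Cdh5Cre and 34.8 in floxed, and Klf2 at 31.7, 69.5 and 37.4 FPKM. Ier2 stood at 19.7, 39.0 and 15.7 FPKM, with both Cre groups above floxed as in Id1. The Cdh5Cre log2 ratios to floxed were 0.68 for Nr4a1, 0.88 for Klf2 and 1.26 for Ier2. With the trend removed they were 0.44, 0.44 and 0.79.

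**Figure D4:**
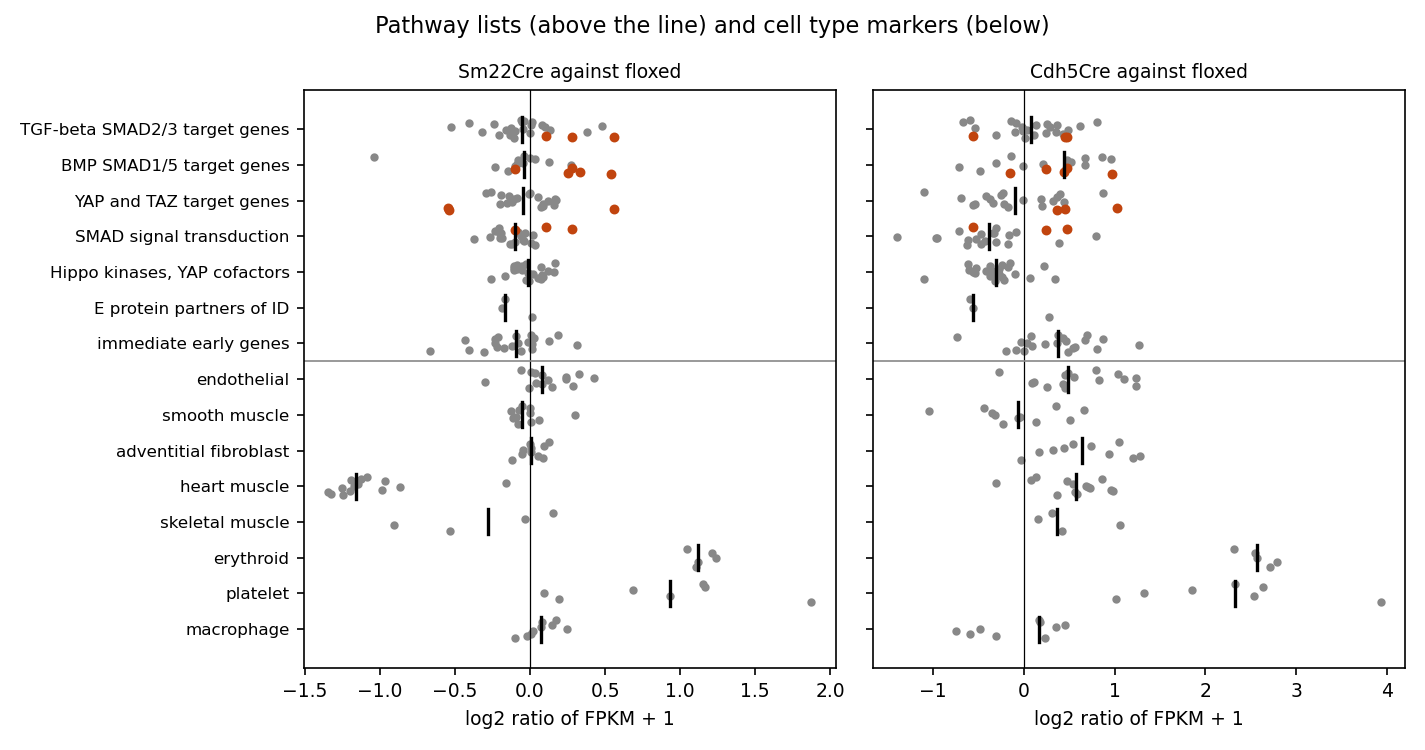
Log2 ratios of FPKM + 1 for the genes of 7 pathway lists (above the line) and 8 lists of cell type markers (below) in Sm22Cre against floxed (left) and Cdh5Cre against floxed (right); each point is a gene, red points are the 9 response genes and black bars are medians, and the 2 panels have different scales. On the left the pathway medians lie between -0.17 and -0.01. Heart muscle (-1.16), platelet (0.94) and erythroid (1.12) markers lie outside that range. For the right, the value with the length and GC trend removed follows each median as deposited. Erythroid (2.57, 2.06), platelet (2.32, 1.99), adventitial fibroblast (0.64, 0.55) and heart muscle (0.57, 0.18) markers lie furthest right. Endothelial markers (0.49, 0.52), BMP targets (0.45, 0.14) and immediate early genes (0.38, 0.19) follow. E protein partners (-0.56, 0.01) and SMAD transducers (-0.38, -0.16) lie furthest left.

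Blood cell transcripts differed between the groups as well. Platelet markers summed to 91.6 FPKM in Sm22Cre, 277 in Cdh5Cre and 48.5 in floxed, and erythroid markers to 9029, 25453 and 4020 FPKM. Both Cre groups were therefore above floxed, in the same order as Id1. Adventitial fibroblast markers summed to 2020 FPKM in Sm22Cre, 3178 in Cdh5Cre and 2031 in floxed. Smooth muscle markers had medians of -0.05 in Sm22Cre and -0.06 in Cdh5Cre against floxed, with 11 measured. Macrophage markers had medians of 0.07 in Sm22Cre and 0.17 in Cdh5Cre, the second of which was -0.27 with the length and GC trend removed. The 4 measured skeletal muscle markers had medians of -0.28 in Sm22Cre and 0.37 in Cdh5Cre, the second of which was 0.06 with that trend removed. The part of any of these cell types in the values of the 9 genes was not tested.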

How the data were processed

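Per the labels' protocols, RNA from frozen aorta went into stranded poly-A libraries, sequenced as paired ends. The submitters' processing notes name TopHat2 2.0.8, Bowtie2 2.1.0, SAMtools 0.1.7, Cufflinks 1.3.0 and build mm9, without roles. The deposited table gives FPKM, 1 value per gene and group, made by the authors from 3 libraries and listed by pair of groups, per the file headers. Where both listings of a group are compared, 15 genes differ and none of the 9. Start positions were taken as counted from 0 and raised by 1. Genes with status HIDATA (7) were left out and those with FAIL kept.

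Log2 ratios of FPKM + 1 were computed with Python 3.11.15, numpy 2.4.6 and pandas 2.3.3 over genes at 1 FPKM or more in at least 1 group. Symbols, transcript lengths and GC content came from GENCODE M21. The trend over length and GC content was removed by least squares, damped for low genes, and tested on simulated data. The 9 genes and the 15 gene lists were chosen with earlier results of these data known. Genes named beside the 9 were taken from the 3 with the largest ratio in each pathway list and comparison, the 2 highest of each marker list, and the 3 nearest in pattern to each of the 9 with a ratio of 1.5 or more. Protein sequences were not compared here.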

Additional observations from a re-analysis of the deposited data

How the results depend on the processing

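No library could be left out, since values are per group. No paired analysis was possible because each group has 1 value. Of the 27 log2 ratios of the 9 genes, 23 kept their sign under every alternative that gave a value. A changed pseudocount, a changed filter or a restriction to status OK cannot change a sign, so only the other alternatives could. The 23 include Id3 at 0.00 and Skil at -0.01 in Cdh5Cre against floxed with the length and GC trend removed. Against floxed, Ccn2 in Cdh5Cre was -0.01 under quantile normalization in place of 0.45, and Smad6 in Cdh5Cre was -0.04 with groups scaled to the same sum and -0.03 with the length and GC trend removed, in place of 0.24. Between Sm22Cre and Cdh5Cre, Smad7 was 0.07 with groups scaled to the same sum in place of -0.20, and Id3 was 0.16 there, 0.10 under quantile normalization and 0.29 with the trend removed, in place of -0.11. The cause of these sign changes was not tested. The summed FPKM was 500015 in Sm22Cre, 604454 in Cdh5Cre and 495724 in floxed. Scaling to the same sum moved the median of all genes from 0.02 to -0.24 in Cdh5Cre against floxed. In Sm22Cre against Cdh5Cre it moved from -0.01 to 0.24.

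In Cdh5Cre against floxed, 269 genes passed 2-fold (169 higher, 100 lower). There were 586 with a pseudocount of 0.1, 652 with 0.01, 628 with groups scaled to the same sum (135 higher, 493 lower), 77 with the trend removed (65 higher, 12 lower) and 161 among protein-coding genes. At 1.5-fold there were 2041, and 6145 at 0.32 on the log2 scale. In Sm22Cre against floxed, 90 passed (43 higher, 47 lower), with 171 at a pseudocount of 0.1, 198 at 0.01, 122 scaled to the same sum (52 higher, 70 lower), 37 with the trend removed (13 higher, 24 lower), 35 among protein-coding genes, 219 at 1.5-fold and 696 at 0.32. A filter of 5 FPKM gave 38 and leaving out genes listed at 0 gave 42. In Sm22Cre against Cdh5Cre, 232 passed (57 higher, 175 lower), with 528 and 581 at the smaller pseudocounts, 149 at the filter of 5 FPKM, 456 scaled to the same sum (315 higher, 141 lower), 85 with the trend removed (9 higher, 76 lower), 132 among protein-coding genes, 1695 at 1.5-fold and 5614 at 0.32. The restriction to protein-coding genes and the removal of genes listed at 0 were chosen after seeing the data.

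Of the 9, 1 passed 2-fold in Cdh5Cre against floxed. This was 0 with groups scaled to the same sum, 0 under quantile normalization and 0 with the trend removed, 2 at 1.5-fold and 7 at 0.32. In Sm22Cre against floxed 0 passed 2-fold and 5 passed 0.32. In Sm22Cre against Cdh5Cre 1 passed, with 3 at 1.5-fold and 6 at 0.32.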
